A study of Mus musculus with 3 samples.

Results

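The genes described here are 10 genes of the circadian clock, Clock, Arntl, Per1, Per2, Per3, Cry1, Cry2, Nr1d1, Nr1d2 and Dbp, taken by their symbols from knowledge of the clock. All 10 were matched, of 55450 genes with a symbol, in total RNA from T cells of the mouse spleen. The mice were females of 66 days of age and of the strain B6CASTF1/J, F1 offspring of C57BL/6 females and CAST/EiJ males. The 3 libraries, replicates 1, 2 and 3, were each made from 300 ng of RNA, and form 1 group, so no condition is compared; the labels name CD3, the T-cell receptor's partner complex, and no treatment. The labels number the libraries as biological replicates 1, 2 and 3, but their 3 biosample records belong to 1 donor record. SDs and p-values therefore measure the spread of these libraries alone, and part or all of it may be technical. The labels used here state no time of day, and the levels of these daily cycling genes are given without a phase.

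The mammalian clock is a feedback loop of transcription. CLOCK and BMAL1, the product of Arntl, bind E-box sequences as a pair and switch on the Per and Cry genes, whose proteins return to the nucleus and repress that pair. In a second loop the nuclear receptors REV-ERB alpha and REV-ERB beta, encoded by Nr1d1 and Nr1d2, repress Arntl through ROR elements, which ROR receptors activate. DBP, a PAR bZIP factor under direct E-box control, binds D-box sequences and carries the rhythm to output genes. In lymphocytes the clock is known for daily rhythms of trafficking between blood and lymphoid organs. Per1 and Per2 are also known to respond within hours to cAMP signalling and to glucocorticoids.

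These binding sequences were looked for in the promoters of the members, from 250 bases before to 50 bases after each RefSeq start on GRCm38.p6. Of the 10 members 9 had an entry, with 13 promoters between them, and Per2 had none. Both strands were searched for the E-box CACGTG, the D-box TTATGTAA or TTACGTAA, the ROR element core TAGGTCA and the cAMP response element TGACGTCA. The E-box and the cAMP response element read the same on both strands, and no searched motif contains another. The lines that follow show every stretch of member promoter that held a motif, 5′ to 3′ along the gene's strand with the motif in capitals. For Per1, the most abundant member, they show the whole 250 bases upstream of the start concerned.
Per1, chr11:69098699-69098948, + strand: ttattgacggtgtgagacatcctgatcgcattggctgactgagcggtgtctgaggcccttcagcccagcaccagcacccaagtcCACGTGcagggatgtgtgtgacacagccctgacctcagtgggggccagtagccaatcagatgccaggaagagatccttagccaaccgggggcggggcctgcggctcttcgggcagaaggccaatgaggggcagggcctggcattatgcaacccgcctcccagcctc
Cry1, chr10:85185097-85185126, - strand: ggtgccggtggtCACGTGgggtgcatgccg
Per3, chr4:151044852-151044881, - strand: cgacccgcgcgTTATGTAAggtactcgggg
Per3, chr4:151044805-151044834, - strand: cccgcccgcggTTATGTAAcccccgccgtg
Arntl, chr7:113207530-113207559, + strand: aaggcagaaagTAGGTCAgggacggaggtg
The E-box of Per1 began 166 bases before its RefSeq start and that of Cry1 60 bases before. Per3 held a pair of identical D-boxes, which began 205 and 158 bases before its start. The ROR core of Arntl began 31 bases after the start of one of its promoters. An E-box was present in 2 of the 13 member promoters and in 7.15% of all 32851 promoters, and a D-box in 1 of the 13 and in 1.06%. The ROR core was present in 1 of the 13 and in 2.61% of all promoters, and the cAMP response element in 0 of the 13 and in 1.79%. A match is a description of the letters in the window, and no match says only that these letters are not in it.

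The libraries held 15.0 to 16.9 M estimated counts, and a count of 0 allows up to 3 counts in a library, or 0.178 to 0.200 CPM, the count scaled to library size. The T-cell label held against markers: all 12 T-cell genes exceeded 10 TPM in every library and summed to 2968 to 3212 TPM. TPM is abundance per transcript length and depth. Summed TPM was 12.8 to 24.4 for 10 B-cell genes (5 of them at 1 TPM or more in every library), 23.9 to 30.4 for 10 myeloid genes (4), 24.4 to 29.9 for 6 NK-cell genes (5) and 43.3 to 97.1 for 9 erythroid and platelet genes (4). Each of these lists had its defining genes above 0 in every library, except that Ly6g, Pf4 and Gp9 were listed at 0 in 1 or more libraries. Replicate 2 had the highest sums of B-cell and erythroid genes, and replicate 3 the lowest. The share of the clock transcripts that came from these other cells was not tested. In bulk RNA, fewer cells that express a gene and less of its RNA per cell cannot be told apart.

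Of the 10 clock genes, 9 reached 1 TPM in every library, against 44.8% of 21951 protein-coding genes, and 4 reached 10 TPM, against 25.5%. The median over the 10 members was 10.5 TPM, beside 13.6 TPM over the 9843 protein-coding genes at 1 TPM or more and 0.5 TPM over all protein-coding genes. On the log2(TPM + 1) scale the median level of the members was 3.50 ± 0.09 (SD, n = 3). Per1 alone held 53.3% ± 1.29 of the summed TPM of the 10 genes. From the highest to the lowest mean the order was Per1, Nr1d2, Dbp, Cry1, Arntl, Cry2, Clock, Per2, Nr1d1 and Per3. The second quantification, a separate set of transcript estimates that the authors deposited for the same reads, gave all 10 genes 1 TPM or more. Its TPM was a median of 1.18 times that of the gene tables for the members and 1.31 times for the detected protein-coding genes.

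**Figure D1:**
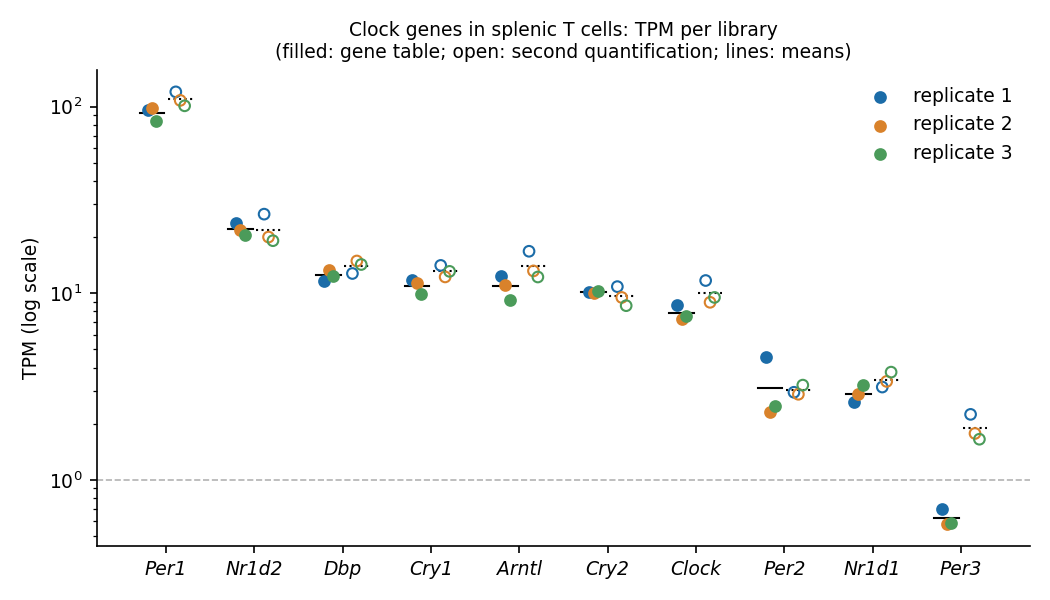
TPM (log scale) of each clock gene in each library, in the gene tables (filled points, mean as a solid line) and in the second quantification (open points, mean as a dotted line); the dashed line marks 1 TPM. Per1 lies above every other member in all 3 libraries and Per3 is lowest in both sets of tables, below 1 TPM in the gene tables only.

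Neighbours in this order were compared by their log2 ratio within each library, and were taken to differ beyond their spread where the ratio kept its sign in all 3 libraries and its mean was at least 2 SD. By that rule Dbp and Cry1, Cry1 and Arntl, Arntl and Cry2, and Per2 and Nr1d1 did not differ beyond their spread. The other 5 neighbouring pairs did: Per1 above Nr1d2, Nr1d2 above Dbp, Cry2 above Clock, Clock above Per2, and Nr1d1 above Per3. The second quantification changed this for 4 of the 9 neighbouring pairs. Nr1d2 against Dbp lay there at 0.64 ± 0.36 and Cry2 against Clock at -0.06 ± 0.13 (log2), without a difference beyond the spread. Arntl exceeded Cry2 there by 0.54 ± 0.08 (log2), and Per2 lay below Nr1d1 at -0.18 ± 0.08 (log2). In the gene tables the Per2 to Nr1d1 ratio was positive only in replicate 1 (0.81, -0.31 and -0.38, log2). In replicate 1 the short entry Per2-202 held 53.1% of the TPM of Per2, as described below.

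Of the activators, Arntl had the higher level per transcript length. Clock (ENSMUSG00000029238.11, chr5:76209868-76304792, minus strand), the bHLH-PAS partner of BMAL1, had 8.62, 7.24 and 7.58 TPM in replicates 1, 2 and 3, from 769, 621 and 672 estimated counts. Arntl (ENSMUSG00000055116.8, chr7:113207465-113314126, plus strand), whose product BMAL1 is the partner that a working clock cannot do without, had 12.44, 11.10 and 9.21 TPM from 530, 409 and 391 counts. Arntl was highest in replicate 1 and lowest in replicate 3, and its values did not overlap those of Clock. Arntl exceeded Clock by 0.48 ± 0.17 on the log2 TPM scale (1.39-fold), in 3 of 3 libraries. The exact two-sided sign-flip permutation test gave p = 0.25, the smallest that 3 libraries allow, and 0.292 after Benjamini-Hochberg adjustment over the 7 pairs tested. This order holds per transcript length: as CPM, which is not divided by length, Clock was the higher, with an Arntl to Clock ratio of -0.64 (log2).

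The period genes, whose PAS-domain proteins form the repressor with the cryptochromes, spanned the whole range of levels. Per1 (ENSMUSG00000020893.17, chr11:69095217-69109960, plus strand) had 95.76, 97.86 and 84.31 TPM, or 92.6 ± 7.29 (SD, n = 3), from 4496, 3706 and 3822 counts. It ranked 527th of the detected protein-coding genes, at percentile 94.7. Per2 (ENSMUSG00000055866.9, chr1:91415982-91459324, minus strand), the period gene most needed for a stable rhythm, had 4.56, 2.32 and 2.48 TPM from 214, 205 and 233 counts. Per3 (ENSMUSG00000028957.12, chr4:151003652-151044665, minus strand), which the core loop can do without, had 0.70, 0.58 and 0.59 TPM from 53, 48 and 49 counts. The 3 genes did not overlap in any pair of libraries.

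Per1 exceeded Per2 by 4.96 ± 0.52 (log2, 31.1-fold) and Per3 by 7.22 ± 0.16 (log2, 149-fold). Per2 exceeded Per3 by 2.26 ± 0.39 (log2, 4.79-fold). Each direction held in 3 of 3 libraries, with p = 0.25 and an adjusted p of 0.292 in the exact sign-flip permutation test. In the second quantification the distance between Per2 and Per3 shrank to 0.68 (log2) and that between Per1 and Per3 to 5.87 (log2).

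The high TPM of Per2 in replicate 1 rested on 1 short transcript entry. Its estimated counts did not stand apart there: 214 counts with an exact 95% Poisson interval of 186 to 245, against 205 (178 to 235) in replicate 2 and 233 (204 to 265) in replicate 3. Such intervals cover counting error only, since PCR copies are not independent molecules. Per2-202, an entry of 231 nucleotides annotated as a processed transcript, was assigned 5.41 counts in replicate 1, which its short length turned into 2.42 TPM, 53.1% of the gene's TPM. In replicates 2 and 3 it had 0 and 0.10 TPM. The full-length coding entry Per2-201, of 5833 nucleotides, had 2.14, 2.32 and 2.38 TPM. The second quantification placed no reads on Per2-202 and gave Per2 2.95, 2.88 and 3.22 TPM. The deposited interval of the gene's TPM was 2.25 to 7.56 in replicate 1 and overlapped those of replicate 2 (2.01 to 4.59) and replicate 3 (2.11 to 5.05).

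**Figure D2:**
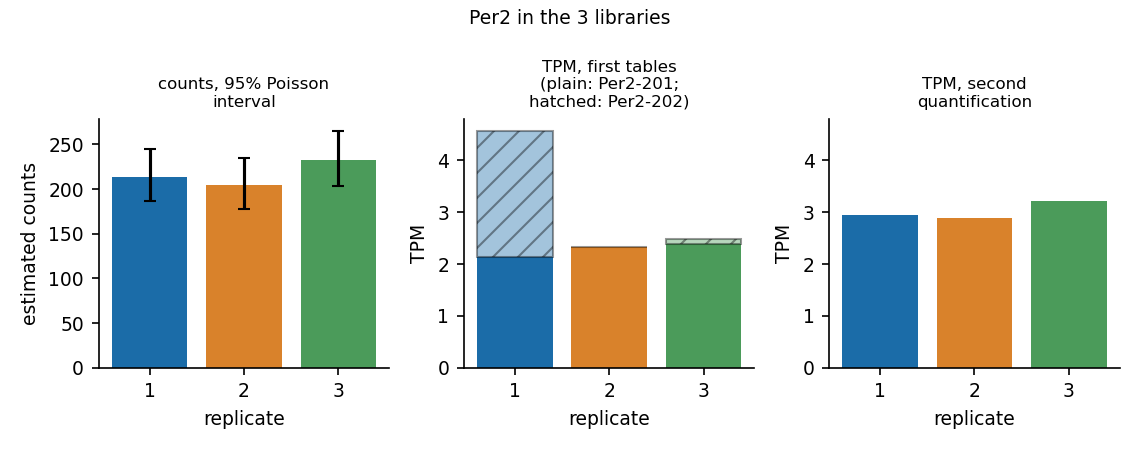
Per2 in replicates 1, 2 and 3 as estimated counts with exact 95% Poisson intervals (left), as TPM in the first tables split into the entries Per2-201 (plain) and Per2-202 (hatched) (middle), and as TPM in the second quantification (right). The bar of replicate 1 is tall only in the middle panel, where 2.42 of its 4.56 TPM are the hatched part.

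Per2 was thereby the member with the largest range on the log2(TPM + 1) scale, 0.74. The genes whose centred values over the 3 libraries lay nearest to it were Ikzf2, which encodes the T-cell factor Helios (24.32, 14.25 and 14.96 TPM, distance 0.0094), Gm12319 (5.03, 2.52 and 2.74 TPM) and Xlr4e-ps (5.58, 3.00 and 3.22 TPM). With 3 points per gene, 46 of 12715 genes lay within a distance of 0.1, and the likeness is to a TPM pattern that the counts of Per2 do not show.

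Per3 was the member whose level depended most on the quantification. The second quantification gave it 2.24, 1.77 and 1.65 TPM from 134.6, 105.4 and 105.3 counts, a TPM 3.03 times that of the gene tables. The 95th percentile of that ratio was 1.85 over the detected protein-coding genes. Per3 lies wholly inside the span of Camta1 on the same strand, with 0 shared exon bases, and Camta1 had 12.6 ± 0.720 TPM. Its leading entry also changed, from the coding Per3-201 (52.3% ± 21.1 of the gene's TPM) to Per3-203, which is annotated for nonsense-mediated decay (48.6% ± 7.36 in the second quantification). At 48 to 53 counts the split of Per3 over its 5 entries was not resolved.

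The cryptochromes, flavoprotein relatives that hold CLOCK and BMAL1 in check, were close to each other. Cry1 (ENSMUSG00000020038.10, chr10:85131700-85185064, minus strand), the stronger repressor of the pair, had 11.76, 11.31 and 9.96 TPM. Cry2 (ENSMUSG00000068742.11, chr2:92403646-92434043, minus strand) had 10.21, 10.02 and 10.23 TPM, and its values lay inside the range of Cry1. The log2 ratio of Cry1 to Cry2 was 0.11 ± 0.13, positive in 2 of 3 libraries, with an exact sign-flip permutation p of 0.5 and an adjusted p of 0.5. A p above the threshold does not show that their levels were equal. The ratio was 1.05 (log2) when only protein-coding transcript entries were summed and was 0.45 (log2) in the second quantification.

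The members of the second loop were far apart. Nr1d2 (ENSMUSG00000021775.11, chr14:18204054-18239127, minus strand) had 23.74, 21.95 and 20.55 TPM, the second highest level among the members. Nr1d1 (ENSMUSG00000020889.11, chr11:98767932-98775333, minus strand) had 2.60, 2.88 and 3.23 TPM from 93, 107 and 125 counts. Every value of Nr1d1 lay below every value of Nr1d2, and the log2 ratio of Nr1d1 to Nr1d2 was -2.93 ± 0.26, a level of Nr1d2 7.62 times as high. It held in 3 of 3 libraries, with p = 0.25 in the exact sign-flip permutation test and an adjusted p of 0.292. Nr1d1 shares 263 exon bases (8.55% of its own) with Thra, the thyroid hormone receptor alpha gene on the opposite strand, which had 16.1 ± 1.11 TPM. The library kit was directional per the labels, but whether the counting used strand is not given in the sources used here.

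Dbp (ENSMUSG00000059824.12, chr7:45705088-45710203, plus strand), the output factor, had 11.66, 13.38 and 12.45 TPM from 284, 274 and 288 counts. Dbp exceeded Nr1d1 by 2.11 ± 0.14 (log2, 4.31-fold) in 3 of 3 libraries, with the same exact permutation p of 0.25 and an adjusted p of 0.292. Both genes are direct E-box targets of CLOCK and BMAL1. Dbp shares 539 exon bases (18.0% of its own) on the opposite strand with Sphk2, which had 11.5 ± 0.153 TPM.

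The transcript entries of the members differ in annotated class. Entries annotated as protein coding held 92.3% ± 4.14 of the TPM of Cry1 and 81.4% ± 8.09 of that of Nr1d1, but 53.9% ± 2.81 for Nr1d2, 52.3% ± 5.43 for Clock and 48.8% ± 8.23 for Cry2. By estimated counts, which short entries inflate less, the coding share was higher in each: 98.9% in Cry1, 94.2% in Nr1d1, 75.8% in Nr1d2, 80.6% in Clock and 72.9% in Cry2. The median of the TPM share was 72.6% over the members and 73.6% over detected protein-coding genes. Retained-intron entries existed for 6 members and held more than 10% of the TPM in 4: Nr1d2 (46.1% ± 2.81), Clock (34.8% ± 4.35), Arntl (30.9% ± 0.233) and Dbp (24.0% ± 2.40). The second quantification gave these 4 genes 47.0%, 35.0%, 30.7% and 33.1%. As a share of estimated counts the values were 24.2%, 15.0%, 25.7% and 26.4%. In Cry2 the rest lay in the processed transcripts Cry2-203 (28.7% ± 0.805 of TPM) and Cry2-204 (22.5% ± 7.93), and the second quantification placed nothing on the latter, an entry of 337 nucleotides.

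**Figure D3:**
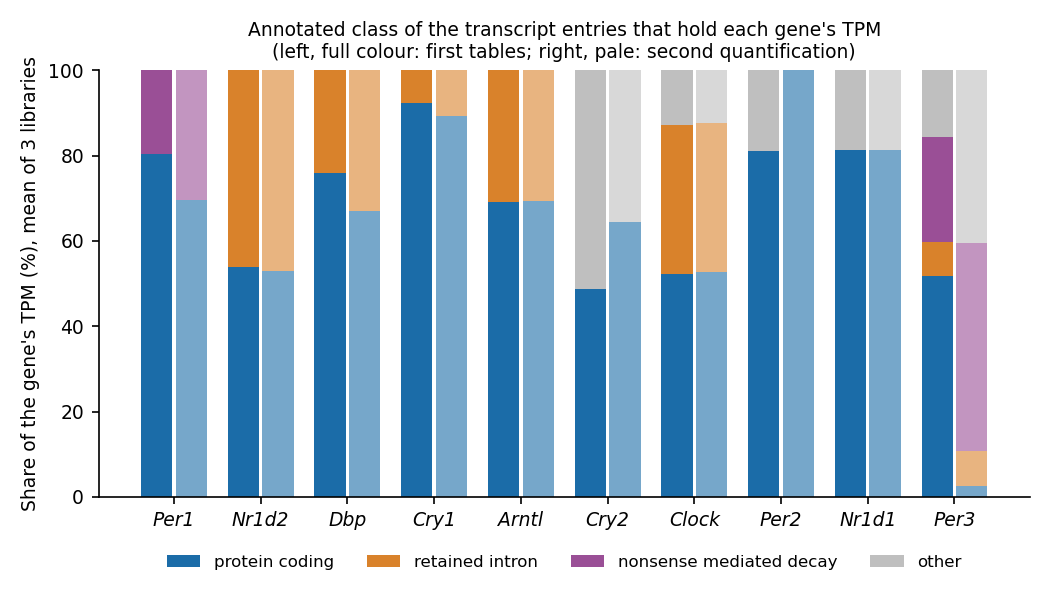
Mean share over 3 libraries of each clock gene's TPM (in %) by the annotated class of its transcript entries, in the first tables (left bar, full colour) and in the second quantification (right bar, pale). Nr1d2, Clock, Arntl and Dbp carry retained-intron shares of 24.0% to 46.1% in the first tables, and the bars of Per3 differ most between the 2 sets.

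The leading entries of the other members were annotated as coding. Cry1-201 held 92.3% ± 4.11 of the TPM of Cry1, followed by the retained-intron entry Cry1-204 (6.49% ± 4.16), and Nr1d1-201 held 81.5% ± 8.10 of that of Nr1d1, followed by Nr1d1-202 (18.7% ± 8.09). Arntl-201 held 43.5% ± 1.22 and Arntl-206, which starts further downstream, 23.4% ± 3.11. Nr1d2-201 held 37.6% ± 0.153 and the retained-intron entry Nr1d2-202 31.4% ± 3.00. Clock-205 held 29.4% ± 2.29 and the retained-intron entry Clock-206 20.2% ± 4.33. Cry2-201 held 38.0% ± 3.79. For Dbp the first tables put Dbp-204 (45.5% ± 3.57) before Dbp-201 (30.5% ± 4.41), while the second quantification put Dbp-201 first with 53.5% ± 7.49. The leading entry differed between the quantifications in 3 of the 10 members, or 2 of the 9 at 1 TPM, against 27.6% of detected protein-coding genes with several entries.

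Per1 has 3 clusters of annotated starts, and its TPM was spread over all of them. The most upstream start, at position 69095217 of chromosome 11 (Per1-202), carried 26.7% ± 2.92 of the TPM in the first tables and 28.9% ± 0.193 in the second quantification. The start at 69098948 (Per1-201), which adjoins the upstream sequence with the E-box printed above, carried 22.5% ± 1.87 and 13.7% ± 5.80. The 4 entries that start between 69100152 and 69100522 carried 50.9% ± 4.62 and 57.4% ± 5.60. As shares of estimated counts the order differed in the first tables, with 34.5% ± 1.80 for the most upstream start, 39.1% ± 1.53 for the start at 69098948 and 26.4% ± 2.70 for the downstream cluster. In the second quantification the shares of counts were 29.5%, 19.0% and 51.5%. Within that cluster the first tables led with Per1-204, a coding fragment of 496 nucleotides (31.2% ± 4.42 of TPM, 4.74% of counts). The second quantification led with Per1-205, annotated for nonsense-mediated decay (30.5% ± 1.91). All 3 start clusters had TPM in both quantifications, and which of them was largest depended on the unit and the quantification.

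No clock gene passed the test for a spread between the libraries beyond that of genes of like abundance. The edgeR quasi-likelihood test of each gene's spread against the trend called 76 of 13324 genes at an adjusted p under 0.05 (0.57%), and 0 of the 10 members. At an unadjusted p under 0.05 it called 5.73% of all genes and again 0 of the 10, and DESeq2's marking of outlying dispersion also marked 0. The largest ratio of highest to lowest CPM belonged to Nr1d1 (5.44, 7.21 and 7.81 CPM, 1.44-fold, edgeR adjusted p = 0.996), and the exact Poisson intervals of its counts overlapped (75.1 to 114, 87.7 to 129 and 104 to 149). The lowest adjusted p among the members belonged to Arntl (31.0, 27.5 and 24.4 CPM, edgeR adjusted p = 0.962). Without replicate 2 its adjusted p was 0.687, and Arntl was then the 1 member with an unadjusted p under 0.05. The median over the members of the highest to lowest CPM was 1.11, beside 1.13 over 10352 genes in their range of counts. In simulated libraries the test recovered 75% of genes changed 2-fold in 1 library and 94% of genes changed 4-fold. Each simulated gene was drawn at the spread of the trend, without the variation between genes of real data. Genes of low count were not changed there, so these rates may not hold for the real libraries.

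**Figure D4:**
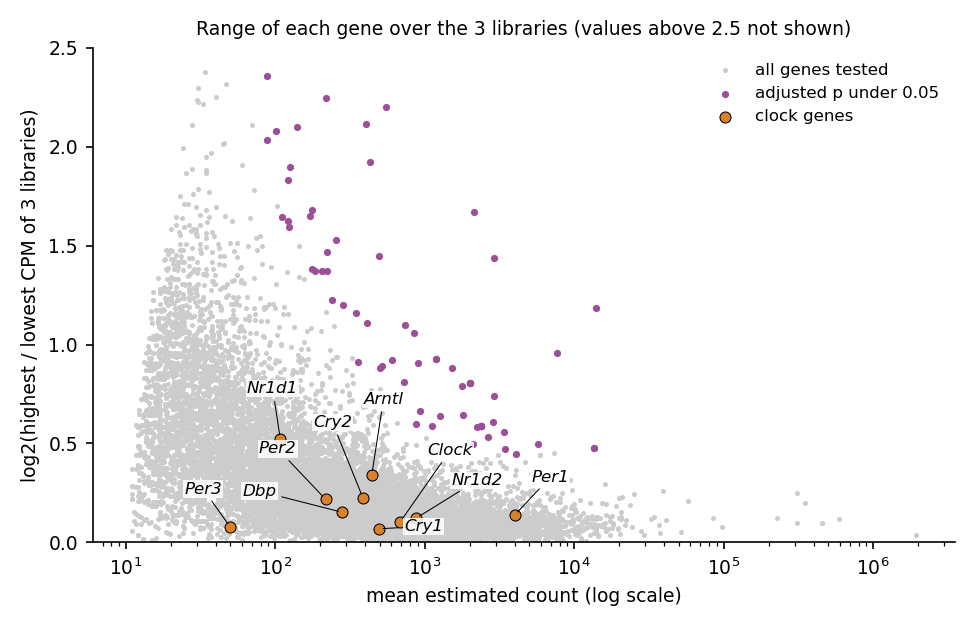
Range of each tested gene over the 3 libraries, as log2 of the highest over the lowest CPM, against its mean estimated count (log scale); genes with an adjusted p under 0.05 are purple, the clock genes orange. All 10 clock genes lie within the grey cloud of genes of like count, Nr1d1 highest among them.

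Lists of immediate-early, proliferation and erythroid genes held called genes beside this. Of 16 immediate-early genes the test called 3, Fos (80.19, 100.78 and 122.41 TPM), Fosb (31.05, 38.56 and 43.71 TPM) and Egr1 (17.72, 26.23 and 21.64 TPM), and the list summed to 1236, 1370 and 1226 TPM. Its highest members were Junb, Jund and Jun at 344, 248 and 136 TPM and its lowest Egr2 and Atf3 at 5.55 and 1.24 TPM. Of 12 proliferation genes the test called 2, Top2a (11.74, 7.50 and 5.28 TPM) and Mki67 (6.27, 4.57 and 2.74 TPM). Both were highest in replicate 1. Of the erythroid and platelet genes the test called Hba-a2 (11.48, 26.11 and 8.10 TPM). None of 10 glucocorticoid-response genes was called, of which 9 could be tested and 4 had an unadjusted edgeR p under 0.05. Such a p was found for 5.73% of all genes tested. It was also found for 7 of 16 immediate-early genes and 5 of 12 proliferation genes. Of the tested genes, 4 of 4 erythroid and platelet and 5 of 9 B-cell genes had it. In the second quantification the test called Sgk1 (edgeR adjusted p = 0.0150). The glucocorticoid-response genes summed to 274, 300 and 311 TPM. Tsc22d3 (138 TPM), Sgk1 (102 TPM) and Fkbp5 (15.9 TPM) were highest, and Mt1 and Cebpd (2.08 and 0.093 TPM) lowest. Per1 itself stood at 263, 250 and 239 CPM (edgeR adjusted p = 0.996), and the part of these lists in its level was not tested.

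Of the close relatives of the members, 1 of 5 reached 1 TPM in every library. This was Rora, the ROR receptor that activates Arntl, with 8.02, 8.14 and 6.40 TPM. Npas2, a substitute for Clock, had 0.560 ± 0.0954 TPM. Arntl2, the BMAL2 gene, had 0.43, 0.02 and 0.22 TPM but 5.60, 5.39 and 6.88 TPM in the second quantification. Rorb was listed at 0 in all 3 libraries of the gene tables and had 0.117 ± 0.0303 TPM in the second quantification. The levels of Arntl and Clock thus exceeded those of Arntl2 and Npas2 in every library of both sets of tables.

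Of 10 output and E-box target genes, 8 reached 1 TPM and none 10 TPM in every library of the gene tables, with a median of 4.91 TPM. Bhlhe40, the repressor DEC1 that competes for E-boxes, was highest there with 14.06, 13.86 and 7.74 TPM. It was lowest in replicate 3, and its edgeR adjusted p of 0.106 did not pass. Without replicate 2 its adjusted p was 0.0479, without a filter on low counts 0.000293, and without replicate 3 0.999. Tef, a PAR bZIP relative of Dbp, had 8.01 ± 0.265 TPM and Nampt, the NAD salvage enzyme, 5.95 ± 1.14 TPM. The lowest were Hlf, the third PAR bZIP gene, at 0.290 ± 0.0954 TPM and Bhlhe41 (DEC2) at 0.0667 ± 0.0551 TPM. Among the PAR bZIP genes the order by TPM was therefore Dbp, Tef and Hlf, with no overlap between libraries. By estimated counts, which are not divided by length, Tef was above Dbp, with 377, 400 and 417 against 284, 274 and 288. Noct, the nocturnin gene, named here after its values were seen, had 2.90 ± 0.329 TPM against 58.3, 96.7 and 51.4 TPM in the second quantification. There Noct was the highest of these genes, and Noct, Bhlhe40 and Nampt reached 10 TPM in every library.

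The kinases, ubiquitin ligases and cofactors that act on clock proteins were mostly abundant: 23 of 25 reached 1 TPM and 19 reached 10 TPM, with a median of 25.0 TPM. Sfpq and Nono, RNA- and DNA-binding partners of PER proteins, had 282 ± 9.08 and 79.8 ± 1.55 TPM. Ncor1, the corepressor through which the REV-ERB receptors act, had 152 ± 7.25 TPM. The lowest were the ligase subunit Fbxl21 (0.60, 0.62 and 0.09 TPM) and the kinase subunit Prkaa2, at 0.02 TPM in replicate 2 and listed at 0 in the others. Csnk1d, a casein kinase that marks PER proteins for decay, lay above all clock genes but Per1 at 54.5 ± 4.08 TPM, and its relative Csnk1e had 14.0 ± 0.907 TPM; both are named after their values were seen. The spread test called none of the 3, 9 and 23 tested genes of these lists. An unadjusted edgeR p under 0.05 was found for 2 of them, Bhlhe40 and Ciart, beside 5.73% of all genes tested. In the second quantification the test called Noct (edgeR adjusted p = 3.90e-06), on 8664, 14250 and 8073 counts. In the gene tables Noct had 271, 251 and 220 counts and was not called (edgeR adjusted p = 0.996).

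**Figure D5:**
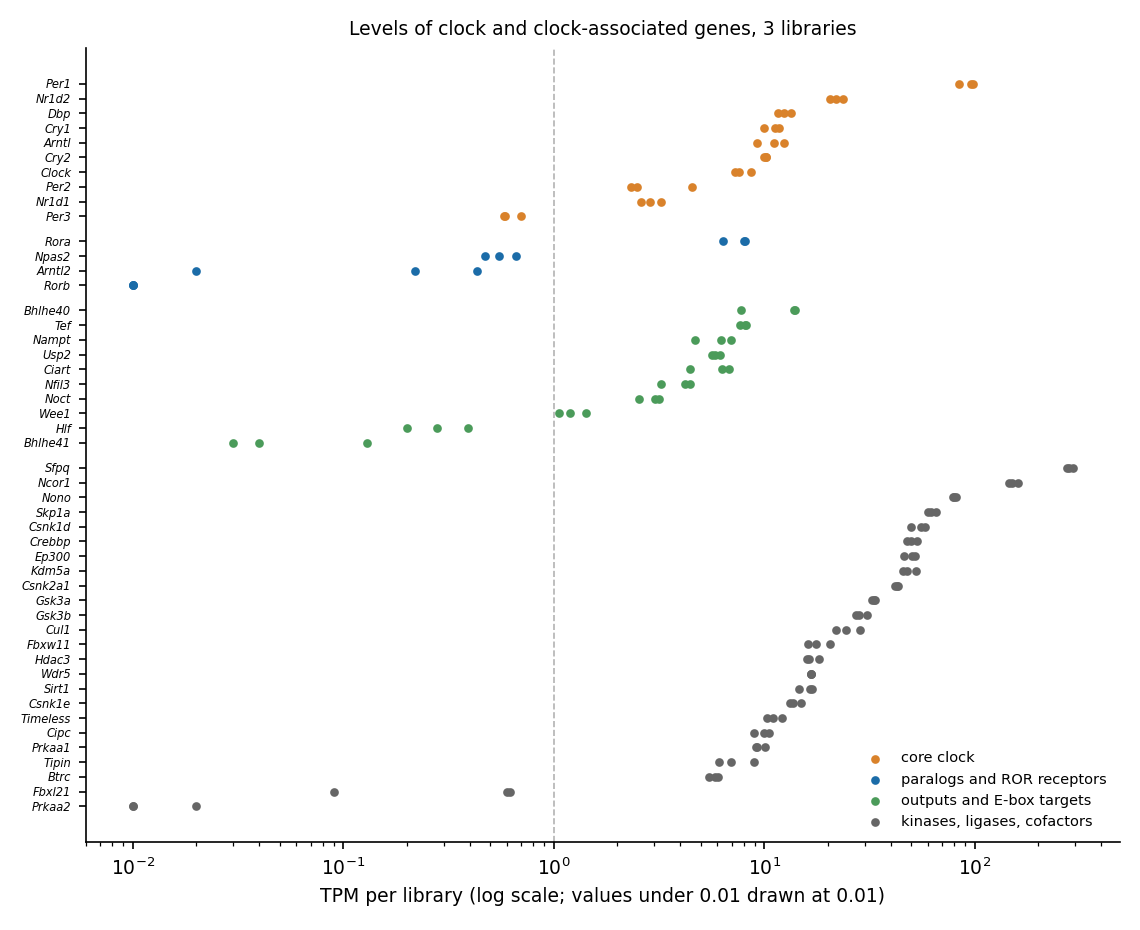
TPM per library (log scale, 3 points a gene, values under 0.01 drawn at 0.01) of the 10 clock genes and of genes from the lists of relatives, output genes, and kinases, ligases and cofactors that act on clock proteins; the dashed line marks 1 TPM. Per1 stands apart among the clock genes, Rora is the only relative drawn to the right of the line in every library, and of the kinases, ligases and cofactors drawn only Fbxl21 and Prkaa2 lie to its left.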

How the data were processed

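Total RNA of splenic T cells was measured in 3 libraries of 1 group, with 3 tables each. The gene tables and first transcript tables hold expected counts (estimated counts), TPM and posterior estimates per the file headers. The authors made them from transcriptome alignments to mm10 with GENCODE M21, per the README deposited with each sample. The second transcript tables hold estimated counts and TPM that the authors deposited, made from the reads against an index, and were summed per gene. Aligner and quantifiers: not given in the sources used here. Both parental genomes were read against 1 reference, and alleles were not analysed here.

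The members and lists were chosen with earlier results of these data known. The rule for named genes was all 10 members, the 3 highest and 2 lowest genes of every other list with any that passed the spread test, the leading pair of transcript entries of each member, and the 3 genes nearest in pattern to the member with the largest range. Some listed genes are counted but not reported here by name. A gene was detected at 1 TPM or more in all libraries. Only genes with a symbol entered the tests and library sizes, and spike-ins did not. Rounded estimated counts were tested with edgeR 4.0.16 (TMM, filterByExpr, intercept-only robust quasi-likelihood fit, F test of the residual dispersion against the trend, Benjamini-Hochberg at 0.05 over all genes). The test was tried on simulated data in which every gene had the spread of the trend (13098 genes, 2 false among 171 calls). Ratios of TPM were tested by exact two-sided sign-flip permutation. Depth was 16.9, 15.0 and 16.2 M estimated counts, or 18.1, 16.4 and 17.5 M in the second quantification. Coordinates are 1-based, from the annotation, and promoters are from RefSeq on GRCm38.p6. Alternatives were the second quantification, posterior mean TPM, CPM, TPM over protein-coding genes, coding entries only, other filters and pseudocounts, DESeq2 1.42.0, a fit that was not robust, and leaving out each replicate.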

Additional observations from a re-analysis of the deposited data

How the results depend on the processing

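None of the members was called for its spread under any of the 9 alternatives, with adjusted p-values between 0.687 and 0.999, and at a mean count of at least 100 Per3 was not tested. Over all genes the 76 calls became 303 with no filter, 28 in a non-robust fit and 124 by DESeq2's outlier mark, and 35 to 85 with a replicate left out. All 7 ratios kept their direction under every alternative except Arntl to Clock, which was -0.64 (log2) as CPM not divided by length. The median level of the members, 3.50, was 3.38 with a pseudocount of 0.1, 3.62 in the second quantification and 4.92 as TPM over protein-coding genes only, which multiplied each member by 2.82 to 2.84. With a replicate left out it was 3.47 to 3.55. The 9 detected members became 4 at 10 TPM and 10 in the second quantification. Levels moved by more than 1 SD for 8 of 10 members in the second quantification and for 1 with posterior means. By estimated counts the coding share moved by more than 1 SD for 7 of 10 members. The 2 alternatives that follow were chosen after seeing the data. The second quantification turned the neighbours Cry1 to Arntl (-0.086, log2), Cry2 to Clock (-0.057, log2) and Per2 to Nr1d1 (-0.18, log2). Of these pairs only Per2 and Nr1d1 differed there beyond their spread. Estimated counts changed the order of the Per1 start clusters. No pairing of samples between groups was possible because the 3 libraries form 1 group. The 7 ratios were taken within each library. Per3, Nr1d1 and Per2 rest on the fewest counts, so differences between libraries of the size of the counting intervals were not detectable for them.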
